A study of Mus musculus with 9 samples.

Results

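The 17β-hydroxysteroid dehydrogenases are enzymes that reduce a ketone to a hydroxyl group, or oxidize it back, in the last step of making estradiol and testosterone, and several of them act mainly on fatty acids or other lipids. Their transcripts were followed in mouse ovaries with and without estrogen receptor β (ERβ, gene Esr2), as 9 genes: Hsd17b1, Hsd17b2, Hsd17b3, Hsd17b4, Hsd17b7, Hsd17b8, Hsd17b10, Hsd17b11 and Hsd17b12. Among the 46078 genes of the count table, 8 of the 9 were found under these symbols. Hsd17b8 was found under its older name H2-Ke6 (ENSMUSG00000073422). Of the 9, 8 passed the filter on low counts and were tested together with all 16722 genes that passed, and Hsd17b8 did not pass.

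RNA-seq was performed on frozen whole ovaries of 5 WT and 4 ERβKO mice of the strain C57BL/6J, with 1 library per sample. The ERβKO mice carried a germline deletion of exon 3 of Esr2, made by crossing floxed mice with Rosa26-Cre deleter mice, which act in all tissues, and then by breeding heterozygotes, and the WT mice were offspring without Cre. The mice of all experiments together were 4 to 20 weeks old, and ovaries were collected without regard to the estrous cycle, so the age and stage of each ovary are not known here. The labels call all samples untreated, although their protocol text describes diets and ligand injections, and no diet or ligand is assigned to any of the samples.

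Between 12353740 and 18717510 fragments were counted per library. The FPKM of Esr2 ranged from 12.4 to 23.9 among WT and from 10.5 to 23.7 among ERβKO ovaries (log2 fold change -0.02). Its count covers the whole gene and not the deleted exon alone, so it does not check the labels. Single ovaries weighed on all comparisons: 287 of all genes tested were called different between genotypes, but 912 without WT replicate 2 and 60 without ERβKO replicate 2. The libraries of WT replicates 4 and 5 carry sample numbers above 200 and the other 7 lower ones. No ERβKO library is in the higher series, so values from the lower series alone are given beside some of the results. Genes of ovarian cells were present, with means for WT and ERβKO ovaries of 14.4 and 18.3 FPKM for Amh of granulosa cells and 17.3 and 28.2 FPKM for Gdf9 of oocytes. Markers of oviduct were also present in every library, with Ovgp1, the secreted oviduct glycoprotein, at 1770 FPKM for WT and 1680 FPKM for ERβKO ovaries on average. The Sertoli cell marker Dmrt1 was at 0 FPKM in all libraries, with at most 3 counts. The other 6 genes of the Sertoli marker list passed the filter on low counts. Among them Sox9 averaged 1.94 and 3.29 FPKM, and Dhh 3.83 and 9.09 FPKM, in WT and ERβKO ovaries.

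In the ovary, theca cells make androgens, granulosa cells aromatize them, and estrone must be reduced to become the potent estradiol. HSD17B1 of granulosa cells and HSD17B7 of the corpus luteum perform this reduction, HSD17B3 makes testosterone from androstenedione and is known mainly from the testis, and HSD17B2 works in the opposite direction. HSD17B4, HSD17B8, HSD17B10, HSD17B11 and HSD17B12 belong to the same superfamily of reductases but serve mainly in peroxisomes, mitochondria, lipid droplets and the endoplasmic reticulum. The comparison of genotypes asks which of these enzymes change in amount when ERβ is absent.

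Hsd17b1 rose in ERβKO ovaries, and it was the only one of the 8 genes tested that met all 3 criteria for a call. A call required an adjusted p under 0.05 from the quasi-likelihood test of edgeR, adjusted over all genes tested by the Benjamini-Hochberg method, a log2 fold change of more than 0.4 in size, and a genotype whose average FPKM exceeded 1. The 1 member called stands beside 1.72% of all genes tested that were called in either direction and 0.915% that were called higher in ERβKO ovaries. DESeq2 with the same criteria called 3 of the 8, Hsd17b1, Hsd17b3 and Hsd17b7, beside 4.78% of all genes. The same 3 had an unadjusted p under 0.05 in edgeR's test, which 19.8% of all genes had. In the deposited FPKM, the genotypes did not overlap for 1 member, Hsd17b1, beside 7.61% of all genes in either direction and 4.29% with higher values in ERβKO ovaries.

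**Figure D1:**
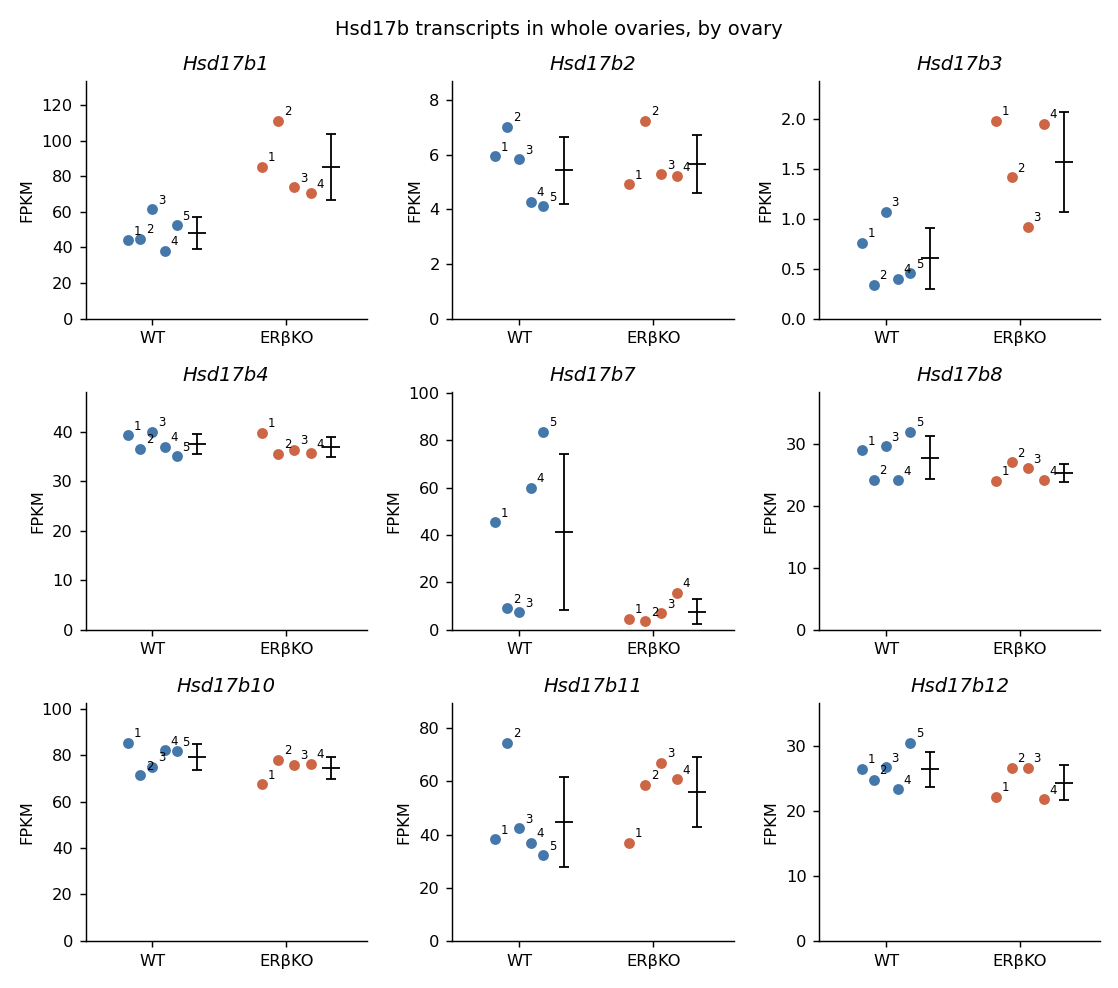
FPKM of the 9 genes (vertical axes, each from 0) in single WT and ERβKO ovaries, where the digit beside a point is the replicate number and the black mark is the mean with SD (n = 5 and 4). Hsd17b1 is higher in all 4 ERβKO ovaries, at 70.3 FPKM or more, than in any WT ovary, while Hsd17b7 splits the WT ovaries into 3 high and 2 low ones.

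Hsd17b1 (ENSMUSG00000019301) lies on chromosome 11 of GRCm38 from 101078411 to 101080527 on the plus strand, and its product reduces estrone to estradiol. Among WT ovaries, replicates 1 to 5 had 44.0, 44.8, 61.5, 38.2 and 52.5 FPKM of it, and ERβKO replicates 1 to 4 had 85.2, 111.2, 73.7 and 70.3 FPKM. All ERβKO ovaries were above all WT ovaries, with ERβKO replicate 2 the highest and WT replicate 3 the nearest from below. The means were 48.2 ± 9.03 and 85.1 ± 18.5 FPKM for WT and ERβKO ovaries (SD, n = 5 and 4). This gave a log2 fold change of 0.77 (standard error 0.16; 95% confidence interval 0.43 to 1.12), and the Benjamini-Hochberg adjusted p was 0.0363 in the edgeR test and 0.000346 in DESeq2. The size of the difference moved little with single ovaries, but the call did not hold without most of them. Without each ovary in turn the log2 fold change was 0.63 to 0.87, and Hsd17b1 was called only without WT replicate 2 (adjusted p = 0.0314) or WT replicate 3 (adjusted p = 0.0214). The adjusted p was 0.0914, 0.0705 and 0.0662 without WT replicates 1, 4 and 5, and 0.0609, 0.109, 0.0636 and 0.0545 without ERβKO replicates 1 to 4, in edgeR's test. Within the 7 libraries of the lower number series the log2 fold change was 0.74 (adjusted p 0.134 in edgeR's test).

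Of 10 granulosa cell markers 1 was called, Inhbb, the inhibin βB subunit (log2 fold change 1.09, adjusted p 0.00883 in edgeR's test). The median log2 fold change of the list was 0.44, with 5 genes at an unadjusted p under 0.05, and the values of Gatm (0.07) and Nr5a2 (0.11) changed sign with single ovaries. Summed over the list, the markers made up 1920 to 2360 CPM (counts scaled to library size) in WT and 2570 to 3270 in ERβKO ovaries, so the 2 ranges did not overlap. Inha had the most counts of the list in every library, so it weighed most in the sum. Amh, Foxl2, Gatm, Nr5a2 and Cyp19a1 overlapped between the genotypes in FPKM, at adjusted p values of 0.504 to 0.833 in edgeR's test. The Sertoli marker list, whose genes granulosa cells can also express, summed to 30.7 to 44.4 CPM in WT and 61.7 to 94.4 in ERβKO ovaries, with 3 of 6 tested genes called higher (Gata1, Dhh and Rhox8). Inhbb and Gata1 kept their calls without each ovary in turn, Dhh lost it without ERβKO replicate 2 or 4 (adjusted p 0.0528 and 0.0513 in edgeR's test), and Rhox8 kept it only without WT replicate 2 or ERβKO replicate 1. In the lower number series Inhbb was still called (adjusted p 0.0402), and Gata1 (0.0875), Dhh (0.0875) and Rhox8 (0.148) were not. The theca marker list summed to 1780 to 2510 CPM in WT and 2690 to 5160 in ERβKO ovaries. Of 6 tested genes 1 was called, Aldh1a1, a retinaldehyde dehydrogenase (log2 fold change 1.05, adjusted p 0.0139 in edgeR's test). Aldh1a1 had the most counts of the list in every library, so it weighed most in the sum. The list's median log2 fold change was 0.08, with 4 genes above 0 and 2 below. Mgarp, at -0.79, was called lower by DESeq2 (adjusted p 0.0297) but not by edgeR's test (adjusted p 0.132). Aldh1a1 was not called without ERβKO replicate 2 or 4 (adjusted p 0.0520 to 0.0528) or in the lower number series (adjusted p 0.0915). Cyp17a1, the lyase of androgen synthesis, had a log2 fold change of 2.35 (adjusted p 0.205), and Insl3 was too low to be tested. In whole ovaries, a larger number of granulosa cells and more Hsd17b1 RNA per cell cannot be told apart, and the part of these markers in the difference was not tested.

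Hsd17b3 (ENSMUSG00000033122) was the least abundant of the 9 genes in both genotypes. It lies on chromosome 13 of GRCm38 from 64058274 to 64089201 on the minus strand. In WT replicates 1 to 5 it was at 0.763, 0.340, 1.07, 0.401 and 0.453 FPKM, and in ERβKO replicates 1 to 4 at 1.99, 1.42, 0.923 and 1.96 FPKM. The values rest on 11 to 38 counts per WT library and 28 to 87 counts per ERβKO library. Only WT replicate 3 and ERβKO replicate 3 crossed over, and the other ERβKO ovaries were above all WT ovaries. For Hsd17b3 the log2 fold change was 1.47 (standard error 0.39; 95% confidence interval 0.61 to 2.32), and the Benjamini-Hochberg adjusted p was 0.0788 in the edgeR test and 0.0106 in DESeq2. The gene was therefore called by DESeq2 alone among the fits with all 9 ovaries, and by edgeR's test without WT replicate 3 (adjusted p = 0.0325). In the lower number series the log2 fold change was 1.22 (adjusted p = 0.281 in edgeR's test).

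Hsd17b7 (ENSMUSG00000026675) had the widest spread of the family and the lowest fold change. It lies on chromosome 1 of GRCm38 from 169949535 to 169969241 on the minus strand, and besides estrone its product reduces a 3-keto intermediate in the synthesis of cholesterol. The WT ovaries were at 45.3, 9.08, 7.42, 60.0 and 83.6 FPKM in replicates 1 to 5, and the ERβKO ovaries were at 4.62, 3.56, 7.07 and 15.6 FPKM in replicates 1 to 4. WT replicates 1, 4 and 5 were above all ERβKO ovaries, while WT replicates 2 and 3 lay below ERβKO replicate 4. The highest WT level was 11.3 times the lowest, against 4.38 times among the ERβKO ovaries. For Hsd17b7 the log2 fold change was -2.48 (standard error 0.77; 95% confidence interval -4.19 to -0.77). The Benjamini-Hochberg adjusted p was 0.118 in the edgeR test and 0.0349 in DESeq2, so the call depended on the tool. Without WT replicate 2 edgeR's test called the gene (log2 fold change -2.74, adjusted p = 0.0441). The 2 highest WT ovaries are the ones of the higher number series, and in the lower series the log2 fold change was -1.42 (adjusted p 0.429 in edgeR's test).

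Luteal cell markers had low values in 3 of the 4 ERβKO ovaries. Of 10 such markers 9 had a fold change below 0 (median log2 fold change -0.86), and none was called by edgeR's test, where 5 had an unadjusted p under 0.05, while DESeq2 called 3. The mean log2 CPM over the list was 9.57, 8.63, 8.53, 8.65 and 9.60 in WT replicates 1 to 5 and 7.26, 7.18, 9.25 and 8.08 in ERβKO replicates 1 to 4. ERβKO replicates 1, 2 and 4 were below all WT ovaries in this mean. Akr1c18, the progesterone-inactivating enzyme of late corpora lutea and the 1 marker with a fold change above 0, ranged from 1.29 FPKM in ERβKO replicate 1 to 471 FPKM in ERβKO replicate 3 and was at 3.27 FPKM in WT replicate 4. Without it, a choice made after its values were seen, the mean log2 CPM of the other 9 markers was 9.75, 8.82, 8.88, 9.34 and 10.11 in WT replicates 1 to 5 and 7.93, 7.73, 9.21 and 8.42 in ERβKO replicates 1 to 4. WT replicates 1, 4 and 5, the ovaries with high Hsd17b7, were then the 3 highest in the marker mean, while ERβKO replicate 3 was above WT replicates 2 and 3. With all 10 markers they were not the 3 highest, since WT replicate 4 (8.65) lay below ERβKO replicate 3 (9.25). The match with Hsd17b7 therefore rests on leaving out Akr1c18. WT replicates 4 and 5 of this match are the libraries of the higher number series. The part of luteal tissue in the difference was not tested.

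Among the 6 members for which the RefSeq promoter table of GRCm38.p6 has an entry, Hsd17b3 and Hsd17b7 are shown because they differed most in fold change, in opposite directions. Each run is the strand of the gene, 5′ to 3′, and capitals mark matches on either strand to CCAAT and to the GC box GGGCGG. The estrogen response element (GGTCA, any 3 bases, TGACC), its single arm GGTCA, which the full element contains, and AAGGTCA, the NR5A-type element that also contains the arm, were searched too.
Hsd17b3, chr13:64089202-64089451, minus strand: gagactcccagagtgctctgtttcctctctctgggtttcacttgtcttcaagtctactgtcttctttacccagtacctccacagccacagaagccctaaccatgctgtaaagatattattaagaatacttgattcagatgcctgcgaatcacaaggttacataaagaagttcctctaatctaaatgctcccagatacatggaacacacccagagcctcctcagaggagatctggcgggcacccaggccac
Hsd17b7, chr1:169969242-169969455, minus strand: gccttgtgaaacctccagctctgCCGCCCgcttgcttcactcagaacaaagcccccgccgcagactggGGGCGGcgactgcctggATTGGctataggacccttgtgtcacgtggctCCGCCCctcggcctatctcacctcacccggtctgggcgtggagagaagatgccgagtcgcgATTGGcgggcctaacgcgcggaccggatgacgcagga

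The Hsd17b3 window of 250 bases held no match to any of the motifs, and 47.2% of its bases were G or C. The Hsd17b7 window was richer in G and C, at 65.6%, against a median of 52.4% over the windows of all genes in the table. It held 3 GC boxes and 3 CCAAT matches, of which 1 CCAAT match lies in the 36 bases next to the RefSeq start that belong to the gene in the files and are not printed. CCAAT was found in 33.8% and the GC box in 32.7% of all 32851 windows of this length. The other motifs were absent from both windows, and among the 6 members only the Hsd17b8 window held the single arm, in 1 match. The arm was found in 35.2% of all windows, AAGGTCA in 4.08% and the full estrogen response element in 0.0639%. A match is a description of the sequence and no evidence of binding, and its absence from these windows says nothing of sites elsewhere.

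**Figure D2:**
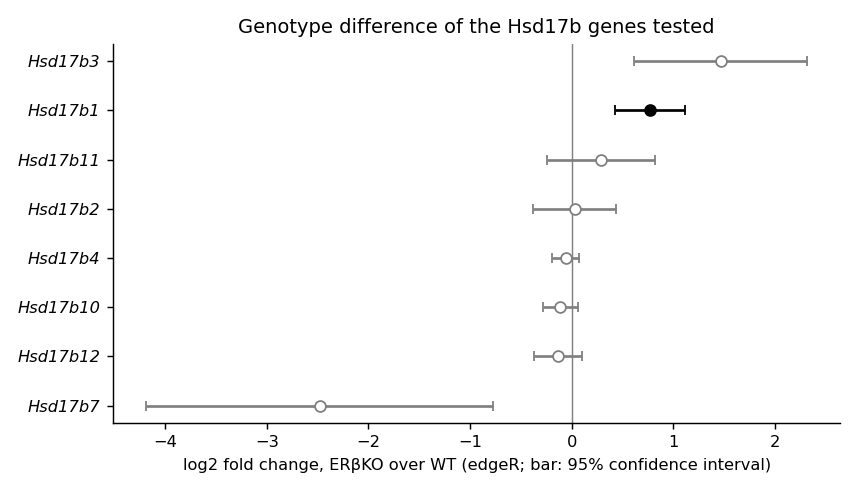
Log2 fold change (horizontal axis, ERβKO over WT) of the 8 genes tested, with the 95% confidence interval from edgeR, where the filled point is the gene called. Hsd17b1, at 0.77, and Hsd17b3, at 1.47, lie above 0 with their intervals, Hsd17b7, at -2.48, lies below, and the other 5 intervals span 0.

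Hsd17b2 (ENSMUSG00000031844; chromosome 8, 117701946 to 117759029), whose product turns estradiol back to estrone, was low and did not differ beyond its spread. WT replicates 1 to 5 were at 5.94, 7.03, 5.85, 4.28 and 4.12 FPKM, and ERβKO replicates 1 to 4 were at 4.92, 7.25, 5.29 and 5.23 FPKM. The ranges overlapped over nearly their whole length, and replicate 2 was the highest in both genotypes. The log2 fold change was 0.03 (standard error 0.19; 95% confidence interval -0.38 to 0.44), the Benjamini-Hochberg adjusted p in edgeR was 0.947, and the sign changed without WT replicate 4 (-0.04), WT replicate 5 (-0.06) or ERβKO replicate 2 (-0.12) and in the lower number series (-0.16). The ratio of Hsd17b1 to Hsd17b2, a reducing over an oxidizing enzyme of estrogens, was taken on the FPKM scale. It was 6.37 to 12.7 in WT and 13.4 to 17.3 in ERβKO ovaries. The ratio was higher in every ERβKO ovary than in any WT ovary, as was Hsd17b1 itself, and no test was made of it. Hsd17b7, whose product also reduces estrone, is left out of this ratio. Hsd17b7 went the other way, with a log2 fold change of -2.48 (adjusted p 0.118 in edgeR's test). The ratio therefore does not describe all enzymes that reduce estrone.

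The 5 members that serve mainly in the metabolism of lipids or in mitochondria overlapped between the genotypes, and none of the 4 among them that were tested was called, with no unadjusted p under 0.05 in edgeR's test and no call by DESeq2. Hsd17b10 (ENSMUSG00000025260; chromosome X, 152001845 to 152004442) encodes a mitochondrial enzyme of isoleucine breakdown that is also a subunit of mitochondrial RNase P. WT replicates 1 to 5 were at 85.3, 71.5, 75.1, 82.1 and 81.6 FPKM, and ERβKO replicates 1 to 4 were at 67.5, 78.1, 75.9 and 76.4 FPKM. The groups overlapped, with WT replicate 1 the highest and ERβKO replicate 1 the lowest. Its log2 fold change was -0.11 (standard error 0.077; 95% confidence interval -0.28 to 0.06; adjusted p 0.466 in edgeR's test).

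Hsd17b11 (ENSMUSG00000029311; chromosome 5, 103989762 to 104021919) encodes a protein of lipid droplets. In order of their number, WT replicates 1 to 5 had 38.3, 74.5, 42.3, 37.0 and 32.3 FPKM of it, and ERβKO replicates 1 to 4 had 36.9, 58.7, 67.0 and 60.9 FPKM. WT replicate 2 stood far above the other WT ovaries and above all ERβKO ovaries, while ERβKO replicate 1 lay among the lower WT values. The log2 fold change was 0.29 (standard error 0.24; 95% confidence interval -0.24 to 0.82) and the adjusted p 0.536 in edgeR's test. Without WT replicate 2 the log2 fold change was 0.54, and the gene was still not called (adjusted p = 0.0862). Its neighbor Hsd17b13, 12351 bases away on the same strand and also a lipid droplet protein, reached at most 0.318 FPKM.

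Hsd17b12 (ENSMUSG00000027195; chromosome 2, 94032689 to 94157964) encodes the ketoacyl-CoA reductase of fatty acid elongation. WT replicates 1 to 5 were at 26.5, 24.8, 26.8, 23.4 and 30.5 FPKM, and ERβKO replicates 1 to 4 were at 22.2, 26.7, 26.7 and 21.9 FPKM, so the groups overlapped. Its log2 fold change was -0.13 (standard error 0.10; 95% confidence interval -0.37 to 0.10; adjusted p 0.509 in edgeR's test).

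Hsd17b8 encodes a subunit of the ketoacyl reductase of mitochondrial fatty acid synthesis, and its gene lies on chromosome 17 from 34026033 to 34028060. Its FPKM were 29.0, 24.3, 29.7, 24.2 and 32.0 in WT replicates 1 to 5 and 24.1, 27.1, 26.1 and 24.2 in ERβKO replicates 1 to 4, and the groups overlapped. Only 0 to 9 fragments per library were assigned to it in the count table, so it had no test. In the GENCODE annotation of the same genome build, 86.4% of its exon bases lie also in Gm20427 on the same strand, and that gene had at most 6 counts. The other 8 members share no exon base with another gene of that annotation.

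Hsd17b4 (ENSMUSG00000024507; chromosome 18, 50128201 to 50196269), the bifunctional enzyme of peroxisomal β-oxidation, had the lowest biological coefficient of variation of the members tested. WT replicates 1 to 5 were at 39.3, 36.5, 40.0, 36.9 and 35.0 FPKM, and ERβKO replicates 1 to 4 were at 39.8, 35.6, 36.4 and 35.7 FPKM. The ranges of the genotypes covered each other almost fully. The log2 fold change was -0.06 (standard error 0.059; 95% confidence interval -0.19 to 0.07; adjusted p 0.628 in edgeR's test). The biological coefficient of variation that edgeR estimated was 0.0856 for Hsd17b4, against 0.704 for Hsd17b7 and a median of 0.146 over all genes tested. Hsd17b10 (0.0988) and Hsd17b12 (0.121) were also below that median, while Hsd17b1 (0.173), Hsd17b2 (0.200), Hsd17b11 (0.255) and Hsd17b3 (0.378) were above it.

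Set in order by mean FPKM, which is per length of transcript, the WT ovaries had Hsd17b10 (79.1 ± 5.66) first. Hsd17b1 (48.2 ± 9.03), Hsd17b11 (44.9 ± 16.9), Hsd17b7 (41.1 ± 32.9) and Hsd17b4 (37.5 ± 2.05) followed, and neighbors among these 4 did not differ beyond their SD. Hsd17b8 (27.8 ± 3.48) and Hsd17b12 (26.4 ± 2.66) came next and did not differ from each other in this sense, and Hsd17b2 and Hsd17b3 were last. In ERβKO ovaries Hsd17b1 (85.1 ± 18.5) and Hsd17b10 (74.5 ± 4.77) came first with overlapping intervals, then Hsd17b11 (55.9 ± 13.1), Hsd17b4 (36.8 ± 1.98), and Hsd17b8 (25.4 ± 1.46) with Hsd17b12 (24.4 ± 2.69). Hsd17b7 (7.71 ± 5.46) stood beside Hsd17b2 (5.67 ± 1.07) near the end of the ERβKO order. The levels of genes beside each other depend on the measure: CPM per kilobase of GENCODE exon were 1.48 to 1.54 times the FPKM for Hsd17b1, but 0.771 to 0.803 times for Hsd17b11. The reason was not tested.

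**Figure D3:**
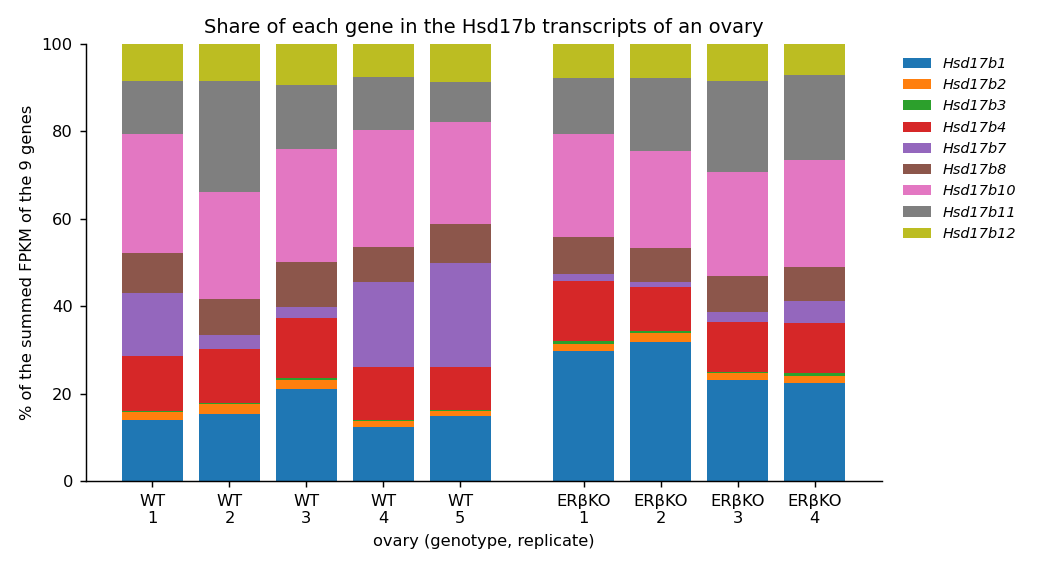
Share of each gene in the summed FPKM of the 9 genes (vertical axis, %) in each ovary, as stacked bars. Hsd17b1 takes 12.5% to 21.2% in WT and 22.5% to 31.8% in ERβKO ovaries, and Hsd17b7 takes 23.7% in WT replicate 5 but 1.02% in ERβKO replicate 2.

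The sum over the 9 genes was 290 to 352 FPKM in WT and 287 to 350 FPKM in ERβKO ovaries, so the summed FPKM covered nearly the same range in both. In CPM, which are not per length, the sum was 614 to 1080 in WT and 584 to 700 in ERβKO ovaries. The composition of the family differed between ovaries. Hsd17b10 was the highest member in WT replicates 1, 3 and 4 and in ERβKO replicates 3 and 4, Hsd17b11 in WT replicate 2, Hsd17b7 in WT replicate 5, and Hsd17b1 in ERβKO replicates 1 and 2. The share of Hsd17b1 was 14.0%, 15.3%, 21.2%, 12.5% and 14.9% in WT replicates 1 to 5 and 29.7%, 31.8%, 23.1% and 22.5% in ERβKO replicates 1 to 4, without overlap. The ratio of Hsd17b1 to Hsd17b7, both reductases of estrone, was 0.628 to 8.29 in WT and 4.51 to 31.2 in ERβKO ovaries. These ratios overlapped, since WT replicates 2 and 3, at 4.93 and 8.29, lay above ERβKO replicate 4.

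Genes outside the 9 whose products carry the family name or act at the same carbon were low or not called. Hsd17b6 reached at most 0.141 FPKM and Akr1c6, the estradiol 17β-dehydrogenase of the aldo-keto reductases, was listed at 0 in all libraries. These 2 and Hsd17b13 did not pass the filter on low counts. Hsd17b14 ranged from 0 to 0.798 FPKM among WT and from 0.244 to 1.13 FPKM among ERβKO ovaries, with an adjusted p of 0.537 in the edgeR test. Dhrs11 averaged 10.4 ± 1.07 and 10.1 ± 0.813 FPKM (SD, n = 5 and 4), with an adjusted p of 0.612.

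The reactions around the members were followed with 8 lists of 85 genes in all, of which 84 were in the files and 82 were tested. edgeR's test called 2 of the 82, both higher in ERβKO ovaries, beside 1.72% of all genes tested. DESeq2 called 12, beside 4.78% of all genes. The counts per list of an unadjusted p under 0.05 in edgeR's test stand beside 19.8% of all genes. Of 12 genes of sex steroid synthesis 8 had a fold change below 0 (median log2 fold change -0.24, against a median near 0 over all genes tested), and none was called by edgeR's test, where 5 had an unadjusted p under 0.05. DESeq2 called 3 of them lower. The smallest adjusted p values were those of Star, the cholesterol carrier of mitochondria (log2 fold change -1.91, standard error 0.45, adjusted p 0.0573), and Fdxr, the ferredoxin reductase (log2 fold change -0.68, adjusted p 0.107). Cyp19a1, the aromatase that supplies HSD17B1 with estrone, had a log2 fold change of 0.71 (adjusted p 0.638 in edgeR's test). Star, Cyp11a1 and Hsd3b1 of this list were also in the luteal marker list. Cyp17a1 was also a theca marker and Cyp19a1 a granulosa marker, so these lists are not separate observations.

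Of 4 genes tested for enzymes that inactivate estrogens (median log2 fold change 0.36), Sult1a1, a phenol sulfotransferase, rose. WT replicates 1 to 5 were at 9.08, 9.10, 9.76, 11.8 and 9.90 FPKM, and ERβKO replicates 1 to 4 were at 19.5, 17.01, 19.8 and 19.9 FPKM, with no overlap. For Sult1a1 the log2 fold change was 0.94 (standard error 0.094), the Benjamini-Hochberg adjusted p in edgeR was 0.00262, and the gene was called in all 19 alternative fits. The other 3 genes tested of this list also had fold changes above 0 and were not called. Sult1e1, another sulfotransferase of the list, was at 0 FPKM in all WT ovaries and at most 0.159 FPKM in ERβKO ovaries. It did not pass the filter on low counts.

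Around Hsd17b7, 16 of 19 genes of cholesterol synthesis had a fold change below 0 (median log2 fold change -0.45). None was called by edgeR's test, where 9 had an unadjusted p under 0.05, and DESeq2 called 2 lower, Hmgcs1 and Fdps. Fdps had only 36 to 236 counts per library, although its FPKM were 34.2 to 151. Hmgcs1, the synthase of hydroxymethylglutaryl-CoA, stood at 138, 48.9, 103, 138 and 239 FPKM for WT replicates 1 to 5 and at 45.8, 39.2, 53.6 and 37.3 FPKM for ERβKO replicates 1 to 4. Like Hsd17b7 it was highest in WT replicate 5 and low in WT replicate 2, but WT replicate 3 was high (log2 fold change -1.63, standard error 0.37, adjusted p 0.0522 in edgeR's test). Dhcr7, the last reductase of the path, had a log2 fold change of -1.44 (adjusted p 0.118). Over the list, the mean log2 CPM was 5.87, 5.24, 5.37, 5.97 and 6.63 in WT replicates 1 to 5 and 5.15, 5.21, 5.58 and 5.31 in ERβKO replicates 1 to 4. WT replicates 1, 4 and 5, the ovaries with high Hsd17b7, were also the 3 highest in this mean. Of these, WT replicates 4 and 5 are the libraries of the higher number series. Within the lower series WT replicate 1 was above all ERβKO ovaries, while WT replicates 2 and 3 lay below ERβKO replicate 3. The fold changes of the list are not given for the lower series alone.

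**Figure D4:**
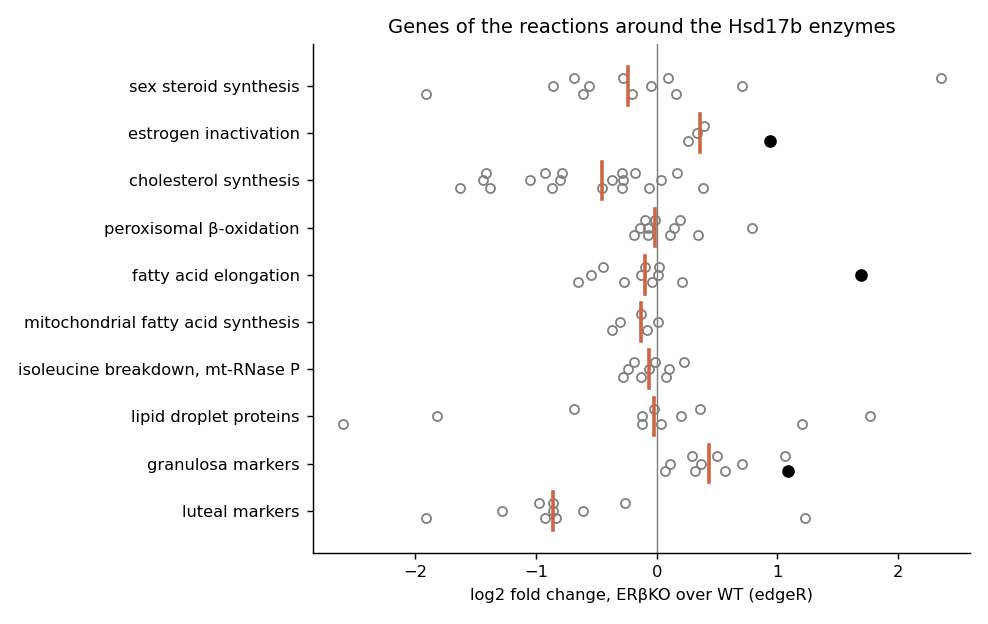
Log2 fold change (horizontal axis, ERβKO over WT, edgeR) of each gene tested in the 8 lists of reactions around the members and in 2 marker lists, with the list's median as a vertical bar and called genes filled. Cholesterol synthesis has its median at -0.45 with no gene called, and the called genes of the reaction lists are Sult1a1 at 0.94 and Elovl2 at 1.69.

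The lists around the other members had median log2 fold changes nearer to 0. In fatty acid elongation, the path of Hsd17b12, Elovl2, an elongase of polyunsaturated fatty acids, rose from a mean of 1.15 ± 0.361 to one of 3.72 ± 1.58 FPKM (SD, n = 5 and 4). WT ovaries held 0.769, 1.63, 1.43, 0.988 and 0.942 FPKM in order of their number and ERβKO ovaries 1.67, 4.56, 3.34 and 5.29 FPKM, so the groups did not overlap, though WT replicate 2 and ERβKO replicate 1 lay close together. The log2 fold change of Elovl2 was 1.69 (standard error 0.32; adjusted p 0.0317 in edgeR's test). The call was kept without WT replicates 2 or 3 or ERβKO replicate 1 and lost without any of the other 6 ovaries, with adjusted p values of 0.0797, 0.0710 and 0.0775 without WT replicates 1, 4 and 5 and 0.107, 0.0678 and 0.0961 without ERβKO replicates 2, 3 and 4. In the lower number series Elovl2 had a log2 fold change of 1.55 (adjusted p 0.168 in edgeR's test). The list's median log2 fold change was -0.10 over 11 genes tested. In peroxisomal β-oxidation, the path of Hsd17b4, the median was -0.01 over 11 genes, with the smallest adjusted p at Acox3 (0.105) and Abcd2 (0.154).

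In mitochondrial fatty acid synthesis, the path of Hsd17b8, the median log2 fold change was -0.13 over 5 genes, and Oxsm (adjusted p 0.0950) and Cbr4, the partner of HSD17B8 (adjusted p 0.202), had the smallest adjusted p in edgeR's test. For isoleucine breakdown and mitochondrial RNase P, both with Hsd17b10, it was -0.06 over 9 genes, with Acat1 (adjusted p 0.121) and Prorp, the nuclease subunit (adjusted p 0.171), first. For lipid droplet proteins, to which Hsd17b11 belongs, it was -0.02 over 11 genes. Plin5 (log2 fold change -2.60, adjusted p 0.0588) and Cidec (log2 fold change 1.77, adjusted p 0.0780) lay at opposite ends of that list. Cidec is also an adipocyte marker, and the 7 adipocyte markers summed to 354 to 682 CPM in WT and 377 to 2600 in ERβKO ovaries, and their part in the Cidec value was not tested. In these 4 lists of the peroxisome, mitochondria and lipid droplets edgeR's test called no gene, where 2, 2, 3 and 4 genes had an unadjusted p under 0.05, and DESeq2 called 3 genes, all of lipid droplets.

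The genes most alike in pattern were sought for the 3 members with an unadjusted p under 0.05, by the root mean square difference of the log2 CPM over the 9 ovaries, each gene taken about its own mean. The genotype difference is part of this pattern. Genes found this way therefore share the direction of their member by selection, and their calls are no separate support. Nearest to Hsd17b1 were Hap1 (0.178), H2-Q4 (0.189) and Apol10b (0.200), where Hsd17b1 itself varied by 0.453 about its mean. H2-Q4 belongs to a family of near-identical class I genes, so its count is uncertain. Nearest to Hsd17b3 were Kazald1 (0.429), Emilin3 (0.438) and Cela3b (0.441), at a variation of Hsd17b3 of 0.912.

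Nearest to Hsd17b7, which varied by 1.62, were Lrrn1 (0.465), Hal (0.539) and Dpysl4 (0.556). Lrrn1, a leucine-rich repeat membrane protein, stood at 69.3, 15.0, 18.8, 77.0 and 104 FPKM for WT replicates 1 to 5 and at 9.13, 5.39, 6.37 and 13.4 FPKM for ERβKO replicates 1 to 4. It had the same 3 high WT ovaries as Hsd17b7, but its WT replicates 2 and 3 stayed above all ERβKO ovaries, and it was called lower (log2 fold change -2.76, standard error 0.60, adjusted p 0.0458 in edgeR's test). Lrrn1 kept this call without WT replicate 2 or 3 and lost it without any of the other 7 ovaries, at adjusted p values of 0.0859 to 0.144 in edgeR's test, and in the lower number series (adjusted p 0.174). Hmgcs1 of cholesterol synthesis was at rank 59 and Star at rank 160 of all other genes tested by likeness to Hsd17b7.

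**Figure D5:**
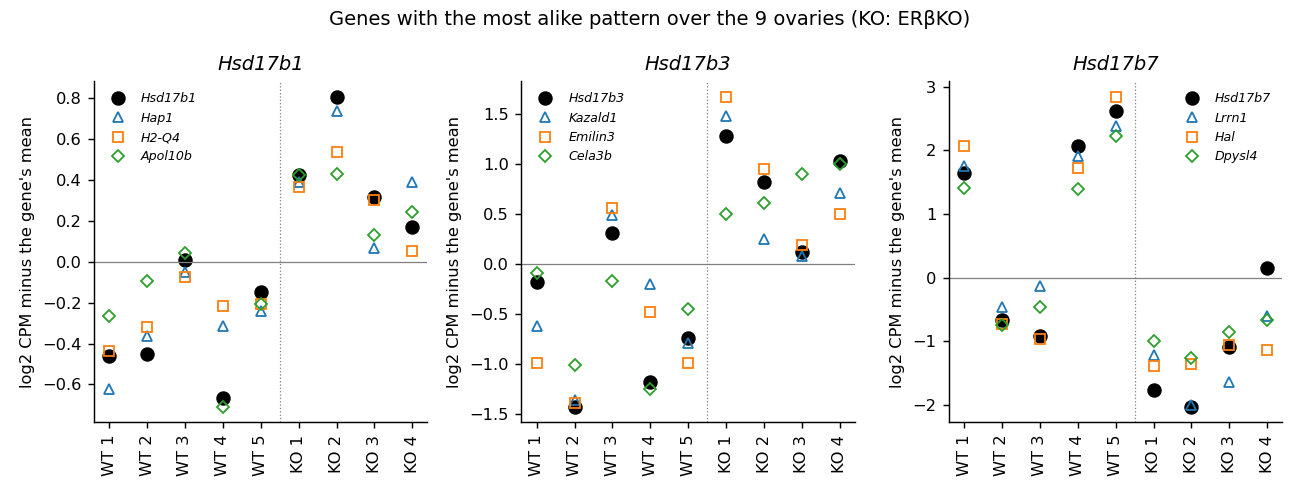
Log2 CPM of Hsd17b1, Hsd17b3 and Hsd17b7 (filled) and of the 3 genes most alike to each (open), minus each gene's mean over the 9 ovaries (vertical axes), in the WT and ERβKO (KO) ovaries. Hsd17b1 lies above its mean in all 4 ERβKO ovaries, and Hsd17b7 and its 3 genes are highest in WT replicates 1, 4 and 5.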

How the data were processed

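RNA-seq of whole ovaries from 5 WT and 4 ERβKO mice was analysed. The authors made stranded polyA libraries, mapped read pairs to GRCm38 with STAR and deposited raw fragment counts per gene from FeatureCounts. The FPKM were calculated by the authors with StringTie per kilobase and library size. The TPM that the authors deposited are scaled to an equal sum per library, and the deposited coverage is an unscaled signal per base, and neither was used for a result. Per the labels, bcl2fastq 2.20.0.422 was used upstream, and other versions, the annotation release and whether counting used the strand are not given in the sources used here. Replicates were not pooled, and p-values measure the spread between these samples.

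Counts were filtered with filterByExpr, normalized by TMM and fitted with genotype as the factor in edgeR 4.0.16 (R 4.3.3), with Benjamini-Hochberg adjustment over 16722 genes. Standard errors were derived from the fold change and its F statistic. Log2 CPM used a prior count of 2. Alternatives were DESeq2 1.42.0, which the study used, other size factors and filters, each ovary left out, a replicate block, the libraries numbered below 200, and limma 3.58.1 on log2(FPKM + 1) or log2(FPKM + 0.1). Tests were tried on simulated counts. In these the biological coefficient of variation was capped below that of Hsd17b3 and Hsd17b7, and only genes with more counts than Hsd17b3 were changed. The simulation therefore does not cover these genes. Tables were handled with Python 3.11.15 and pandas 2.3.3.

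The members, lists, thresholds and alternatives were chosen with earlier results of these data known, and the thresholds are those of the study. Named genes were the members, other genes of the family, the called genes of each pathway list or otherwise the 2 with the smallest adjusted p, and the 3 genes most alike to Hsd17b1, Hsd17b3 and Hsd17b7. Cyp19a1, Fdps, marker genes and Coasy were named besides, after their values were seen. Hsd17b8 and Prorp were matched through RefSeq synonyms, and Sts was not matched. Promoter windows were taken from RefSeq (GRCm38.p6), where 3 members had no entry. No pair of libraries agreed within sampling noise. Chromatin data were not used here.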

Additional observations from a re-analysis of the deposited data

Results flagged for a closer look

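In the 18 groups of 4 or 5 ovaries tested for the 9 genes, 2 single ovaries stood apart by Dixon's test, where chance gives about 1 in 20. Hsd17b11 was at 74.5 FPKM in WT replicate 2, against 32.3 to 42.3 FPKM in the other WT ovaries. Hsd17b2 was at 7.25 FPKM in ERβKO replicate 2, against 4.92 to 5.29 FPKM in the other ERβKO ovaries.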

How the results depend on the processing

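Of the 9 members, 1 was called with edgeR on all ovaries, 3 with DESeq2, and 0 with the libraries numbered below 200 or with limma on log2(FPKM + 1) without a filter, where 2 and 3 members had an unadjusted p under 0.05. Without each ovary in turn 0 to 2 were called. Of the pathway genes, 2 were called with edgeR, 12 with DESeq2, 5 without the filter on low counts, 1 with the libraries below 200 and 1 with each of the limma fits, and 1 to 14 without each ovary (14 without WT replicate 2). Over all genes the 287 calls became 800 with DESeq2, 51 with the libraries below 200, 39 with limma without a filter, and 60 to 912 without each ovary.

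The deviations of samples with the same replicate number had correlations of 0.0948, 0.13, -0.0427 and -0.0105 for replicates 1 to 4, so the numbers were not taken as pairs. With the replicate block 0 members were called, 3 with an unadjusted p under 0.05, and 2 pathway genes, beside 155 of all genes, and the log2 fold change of Hsd17b2 was -0.06.

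Hsd17b2 also turned to -0.16 in the libraries below 200, and it ranged from -0.12 to 0.12 without each ovary. Hsd17b1 was called in 9 of the 19 alternatives, Hsd17b3 and Hsd17b7 in 2 each, and Elovl2 in 9. The direction of the other 7 members tested, Sult1a1 and Elovl2 was the same in all 19 alternatives. Hsd17b3, on 11 to 87 counts per library, had the fewest counts of the members tested.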

Other observations

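Coasy, the coenzyme A synthase, starts 2037 bases downstream of Hsd17b1 on the same strand and was the fourth nearest of all genes tested to Hsd17b1 in pattern, at a root mean square difference of 0.204 log2 CPM. It was named after its values were seen, and its nearness in pattern includes the genotype difference. WT replicates 1 to 5 had 19.1, 20.2, 23.7, 18.3 and 23.7 FPKM of Coasy, and ERβKO replicates 1 to 4 had 30.2, 53.1, 45.1 and 27.0 FPKM, so that the genotypes did not overlap. Its log2 fold change was 0.77 (standard error 0.18), the same as that of Hsd17b1 to 2 decimals, and its Benjamini-Hochberg adjusted p in edgeR was 0.0570, so it was not called. ERβKO replicate 2 was the highest ovary for both genes, while ERβKO replicate 1 was above replicate 3 in Hsd17b1 and below it in Coasy.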
